A study of Bos taurus with 14 samples.

Results

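Transgelins, calponins, tropomyosins and smooth-muscle actin are the proteins that coat, bundle and regulate actin filaments in contractile cells. Of 10 genes listed for this family, 9 had probe sets carrying their single gene symbol in the platform annotation: TAGLN, TAGLN2, ACTA2, CNN1, CNN2, CNN3, TPM1, TPM2 and TPM4. They were measured by 12 probe sets out of 24016 tested, and they are 9 of the 9155 named genes on the array. MYL9, a regulatory light chain of myosin, had no such probe set and was not analysed here. The members were chosen by a list drawn up with the long against short differences of these same arrays in view, so their long and short values are a description. Counts of members past a threshold between lengths are printed beside the share of the whole array, and no p-value is given for them.

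The arrays came from Holstein conceptuses, each the embryo with its extraembryonic membranes, flushed from recipient heifers on Day 15. Donor cows were inseminated with semen of a single bull, and their embryos were recovered on Day 6.5, graded by morphology and transferred to recipients of the same breed. The groups were 3 conceptuses from Grade 3 embryos, 5 long conceptuses from Grade 1 embryos, 5 short conceptuses from Grade 1 embryos, and 1 Grade 1 conceptus with no recorded length. Each conceptus was 1 array with log2 expression values made by the authors with RMA, a method that removes background, puts all arrays on a common distribution and gives 1 value for each set of probes. Embryos went to heifers in groups of 2 to 6, and which of these conceptuses were uterine mates or full siblings is not recorded. The p-values rest only on the spread between these samples, each treated as independent. They may be too small where mates or siblings share a group. Males made up 2 of 3 Grade 3, 1 of 5 long and 2 of 5 short conceptuses.

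A label conflict and an outlying array bear on what follows. Short replicate 1 is called long in one label and short in another; it was kept as short, which gives the 5 and 5 of the design text. On the first principal component of all probe sets, which held 28.8% of the variance, short replicate 5 lay farthest out at -38.4, and its mean correlation with the other arrays was the lowest of the 14, at 0.990. Where leaving out a conceptus changes a call, that is given beside it. Whole-conceptus RNA was measured, so fewer cells of a type and less RNA per cell cannot be told apart.

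From work in human and mouse cells, transgelin and calponin are related actin-binding proteins, and tropomyosins are coiled-coil dimers that lie along the filament and set which myosins and other proteins can bind it. TAGLN, CNN1 and ACTA2 are early markers of smooth muscle, and are also switched on in other cells that pull on their surroundings. Their promoters hold CArG boxes, bound by serum response factor (SRF) with the actin-sensing cofactors of the MRTF family, and TGF-beta is a known inducer. TAGLN2, CNN2, CNN3 and TPM4 are the broadly expressed, non-muscle relatives. In cattle the trophoblast elongates around this stage from an ovoid to a filament, while the embryo proper is still small.

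The largest difference between lengths in the family was that of TAGLN, the actin-bundling transgelin. It measured 7.69, 8.31, 8.33, 7.74 and 8.88 in the 5 long conceptuses, against 5.42, 5.97, 6.28, 6.33 and 5.41 in the 5 short ones. The lowest long value lay above the highest short value. TAGLN averaged 8.19 ± 0.49 in long and 5.88 ± 0.45 in short conceptuses (n = 5 each, SD), a log2 difference of 2.31 ± 0.25 (SE) or 4.95 fold. The conceptus whose labels disagree had 5.42, among the low values of the short group. Counted as long, it brought the TAGLN difference down to 1.73, and TAGLN no longer passed the threshold, a limma p of 0.05 adjusted over all 24016 probe sets.

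TPM2, the beta-tropomyosin of muscle cells, showed the next largest difference. Long conceptuses had 5.58, 5.98, 5.27, 5.30 and 6.07, and short ones had 4.42, 4.52, 4.13, 4.20 and 3.85. The groups did not overlap, and TPM2 averaged 5.64 ± 0.37 in long and 4.22 ± 0.26 in short conceptuses (n = 5 each, SD). The log2 difference was 1.42 ± 0.18 (SE), or 2.67 fold. The signal was low: the mean of this probe set over the 14 arrays, 4.79, lay below the lowest array median of 5.62. The second TPM2 probe set differed by only 0.20 ± 0.07 (SE), with 3.54 ± 0.11 in long and 3.35 ± 0.10 in short conceptuses. Its values over all arrays ran from 3.23 to 3.74, and the bottom of the scale on these arrays was 2.23.

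**Figure D1:**
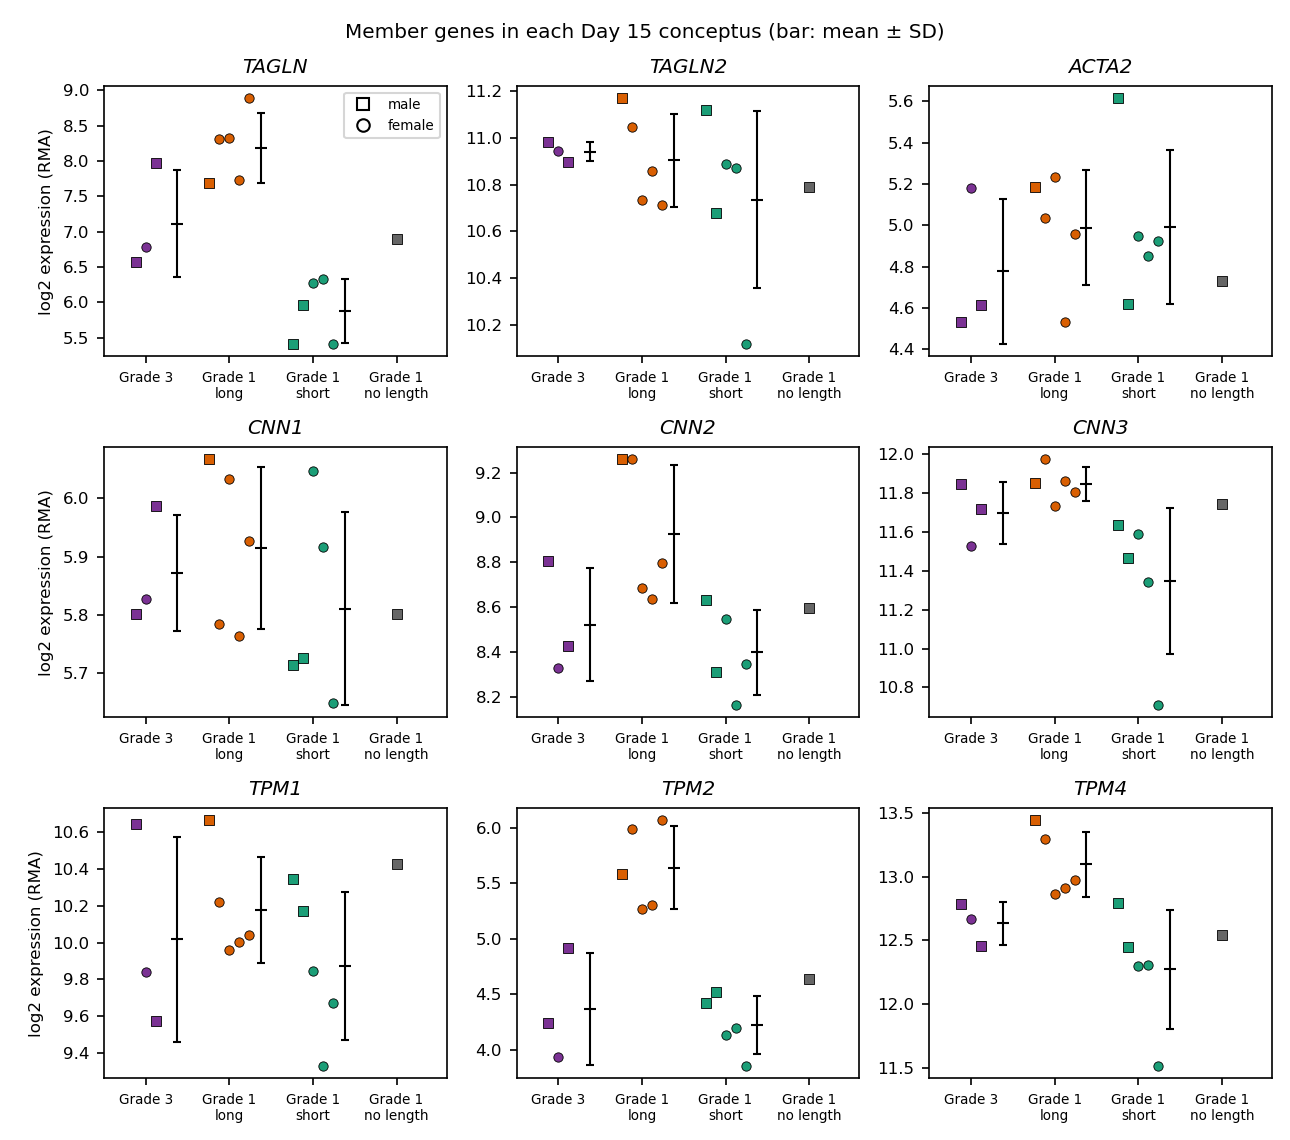
Log2 expression (RMA, vertical axes, not starting at 0) of the 9 measured genes in each conceptus, 1 panel a gene, each by its brightest probe set, for Grade 3, Grade 1 long, Grade 1 short and the Grade 1 conceptus with no length; squares are males, circles females, bars mean ± SD. Long and short conceptuses separate completely for TAGLN, TPM2, TPM4, CNN2 and CNN3 and overlap for TAGLN2, ACTA2, CNN1 and TPM1.

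TPM4, a non-muscle tropomyosin, had the next largest difference. It had 13.44, 13.29, 12.86, 12.91 and 12.97 in long conceptuses, against 12.79, 12.45, 12.30, 12.31 and 11.52 in short ones. The groups lay apart by a narrow margin, with short replicate 5 well below the rest. The means were 13.10 ± 0.26 in long and 12.27 ± 0.47 in short conceptuses (n = 5 each, SD), and the log2 difference was 0.82 ± 0.20 (SE). TPM1, the alpha-tropomyosin, differed less, with 10.18 ± 0.29 in long and 9.87 ± 0.40 in short conceptuses in its brighter probe set (n = 5 each, SD), a difference of 0.31 ± 0.19 (SE). Its dimmer probe set gave 0.40 ± 0.35 (SE). In both TPM1 probe sets the ranges of the groups overlapped. TPM3, the remaining tropomyosin gene and no member of the family list, is named here after its values were seen, to complete the family. It had 12.52 ± 0.06 in long and 12.40 ± 0.03 in short conceptuses (n = 5 each, SD), a difference of 0.12 ± 0.05 (SE; limma adjusted p = 0.221).

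Among the calponins, CNN2 and CNN3 were higher in every long conceptus than in any short one, and CNN1 was not. CNN2, the calponin of non-muscle cells, had 9.26, 9.26, 8.68, 8.63 and 8.80 in long conceptuses and 8.63, 8.31, 8.54, 8.16 and 8.34 in short ones. The lowest long value and the highest short value, that of the conceptus with disagreeing labels, were nearly the same. The CNN2 difference was 0.53 ± 0.14 (SE) in this probe set and 0.28 ± 0.14 in the dimmer one, in which the groups overlapped. CNN3, the acidic calponin, had 11.85, 11.97, 11.74, 11.86 and 11.81 in long conceptuses, against 11.64, 11.47, 11.59, 11.34 and 10.71 in short ones. Its difference was 0.50 ± 0.15 (SE), and 0.34 without short replicate 5. CNN1, the smooth-muscle calponin, had 5.92 ± 0.14 in long and 5.81 ± 0.17 in short conceptuses (n = 5 each, SD). Its difference was 0.10 ± 0.09 (SE), and its range over all 14 arrays, 0.42, was the smallest of the 12 probe sets.

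ACTA2, the smooth-muscle alpha-actin, did not separate the lengths. It had 5.18, 5.04, 5.23, 4.53 and 4.96 in long conceptuses, against 5.62, 4.62, 4.95, 4.85 and 4.92 in short ones. The highest value belonged to the short conceptus whose labels disagree, and the lowest to a long one. The difference was -0.00 ± 0.18 (SE), with an interval from -0.40 to 0.39. The ACTA2 mean over the 14 arrays, 4.93, lay below the lowest array median of 5.62, and RMA compresses differences at low signal. TAGLN2, the broadly expressed transgelin, had 10.90 ± 0.20 in long and 10.73 ± 0.38 in short conceptuses (n = 5 each, SD), a difference of 0.17 ± 0.17 (SE). The interval of that difference ran from -0.19 to 0.53, well short of the difference of its relative TAGLN.

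Counted over the family, 11 of 12 probe sets had the higher mean in long conceptuses, with a median log2 difference of 0.35, against -0.02 over all probe sets. In limma at an adjusted p under 0.05, 4 of the 12 passed, those of TAGLN, TPM2, TPM4 and CNN2, each higher in long; over the whole array 6.57% passed, 2.7% as higher and 3.87% as lower in long conceptuses. The groups did not overlap in 5 of the 12, against 8.42% of all probe sets, or 2.9% in the direction of higher in long. Since the members were chosen with this contrast known, nothing is read from these counts. With 1 of the 10 conceptuses left out in turn, the log2 difference ran from 2.13 to 2.43 for TAGLN, from 1.31 to 1.51 for TPM2, from 0.63 to 0.95 for TPM4 and from 0.45 to 0.60 for CNN2. TPM4 and CNN2 each fell short of the threshold in 7 of these 10 fits. Counting the conceptus with disagreeing labels as long left 2 of the 12 past the threshold, TPM2 and TPM4.

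**Figure D2:**
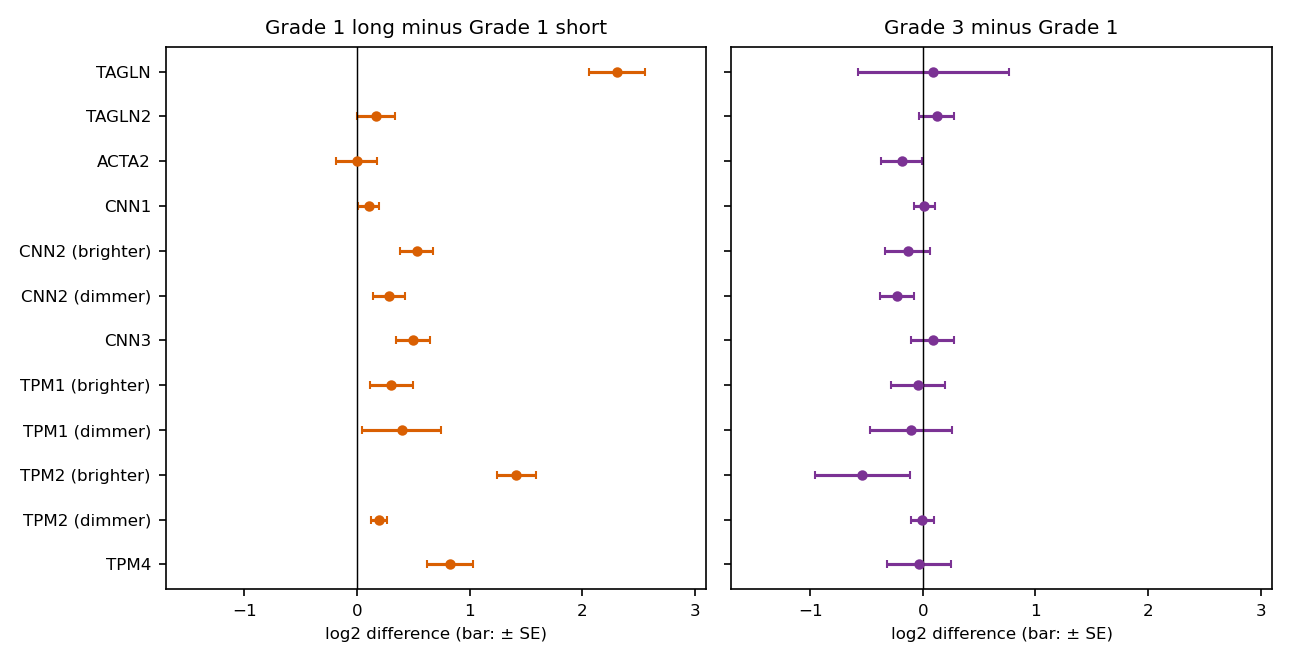
Log2 difference (horizontal axis) of each of the 12 probe sets between Grade 1 long and Grade 1 short conceptuses on the left and between Grade 3 and Grade 1 conceptuses on the right; points are differences, bars ± SE from limma. TAGLN at 2.31 and TPM2 at 1.42 lead the left panel, while the largest in size on the right is that of TPM2 at -0.54.

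Samples fall under 7 title prefixes of unstated meaning, of which 2 hold both lengths. In the one holding 2 long conceptuses and 1 short one, the TAGLN difference was 2.03 and the TPM2 difference 1.26. In the one holding 1 long conceptus and 2 short ones they were 2.03 and 1.10. TPM4 differed by 0.92 and 0.56 in the same 2 prefixes, and CNN2 by 0.95 and 0.33. All long values exceeded all short values in 11 of 12 probe sets in the first prefix and in 10 of 12 in the second. ACTA2 was among them in both, at 0.49 and 0.33, although its means over all 5 and 5 conceptuses were the same to 2 decimals. Each of these prefixes holds only 1 conceptus of one of the lengths. The share of all probe sets in such an order was not counted. Since the members were chosen with this contrast known, nothing is read from these counts. In a fit with these prefixes as blocks, the differences were 2.03 for TAGLN, 1.18 for TPM2, 0.74 for TPM4 and 0.64 for CNN2, and those of TPM2 and CNN2 fell short of the threshold. TAGLN2 was higher in long in the first (0.43) and lower in the second (-0.15).

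The comparison of embryo grades asked whether conceptuses from poorer embryos differ in these genes. Of the 7 title prefixes, 0 held both grades, so differences of grade and of prefix cannot be told apart. Grade 1 pooled long and short conceptuses, so the gap between lengths for which the members were chosen entered the Grade 1 spread and widened the errors of TAGLN and TPM2. The SE of TAGLN was 0.67 in this fit, and 0.31 when Grade 3 was set against the mean of long and short. None of the 12 probe sets passed, as was the case for 0% of the array; limma's smallest adjusted p among them was 0.999. None had an unadjusted p under 0.05 either, which 5.06% of all probe sets did, and none separated the groups, as 0.554% of all did. The median log2 difference over the 12 was -0.04, against 0.00 over all probe sets.

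TAGLN had 6.58, 6.78 and 7.98 in the 3 Grade 3 conceptuses, and a lowest, median and highest value of 5.41, 6.89 and 8.88 in the 11 Grade 1 conceptuses. The limma difference, tested on both sides, was 0.09 ± 0.67 (SE; adjusted p = 0.999), with an interval from -1.33 to 1.52. All 3 Grade 3 values lay above every short conceptus; replicate 3 fell inside the long range and the other two below it. The single Grade 1 conceptus with no recorded length, at 6.89, likewise lay between the long and the short values. As a description, Grade 3 stood 1.08 ± 0.34 (SE) below long and 1.23 ± 0.34 above short conceptuses. TPM2 had 4.24, 3.93 and 4.92 in Grade 3, all below the 5 long values of 5.27 to 6.07. Its mean was 4.37 ± 0.50 in the 3 Grade 3 conceptuses and 4.91 ± 0.77 in the 11 Grade 1 conceptuses (SD), a difference of -0.54 ± 0.42 (SE; limma adjusted p = 0.999). Grade 3 stood 1.27 ± 0.23 (SE) below long and 0.14 ± 0.23 above short conceptuses in TPM2. Thus in Grade 3 the TAGLN mean lay between those of long and short conceptuses, with 1 of the 3 values within the long range. Of the TPM2 values, 2 of the 3 fell within the short range. Replicate 3 had the highest value of the Grade 3 group in both genes.

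TPM4 had 12.78, 12.67 and 12.45 in Grade 3, each within the short range and below all long values. Its Grade 3 minus Grade 1 difference was -0.04 ± 0.29 (SE). For the brighter CNN2 probe set the difference was -0.14 ± 0.20, for CNN3 0.09 ± 0.19 and for TPM1 -0.04 ± 0.24. TAGLN2 was tight in Grade 3, at 10.94 ± 0.04 over the 3 conceptuses, with 10.82 ± 0.28 over the 11 of Grade 1 (SD), a difference of 0.12 ± 0.16 (SE). CNN1 differed by 0.01 ± 0.09 and ACTA2 by -0.19 ± 0.19. The intervals are bounds on the measured values. In CNN1 a change beyond -0.18 or 0.21 lay outside the interval, but in TAGLN only one beyond -1.33 or 1.52. CNN1 averaged 5.86 over the 14 arrays, near the highest array median of 5.72. RMA compresses differences at low signal, so the narrow CNN1 interval may not bound the change in RNA. Against the mean of long and short, a fit that takes the spread within each length group, the TAGLN interval narrowed to -0.58 to 0.74, around 0.08. TPM2 then stood at -0.57 with an interval from -1.02 to -0.11 (limma adjusted p = 0.761). In that fit 0 probe sets of the array passed. The members were chosen with the gap between lengths in view, which may favour genes of small spread within lengths. The intervals of that fit are therefore a description.

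**Figure D3:**
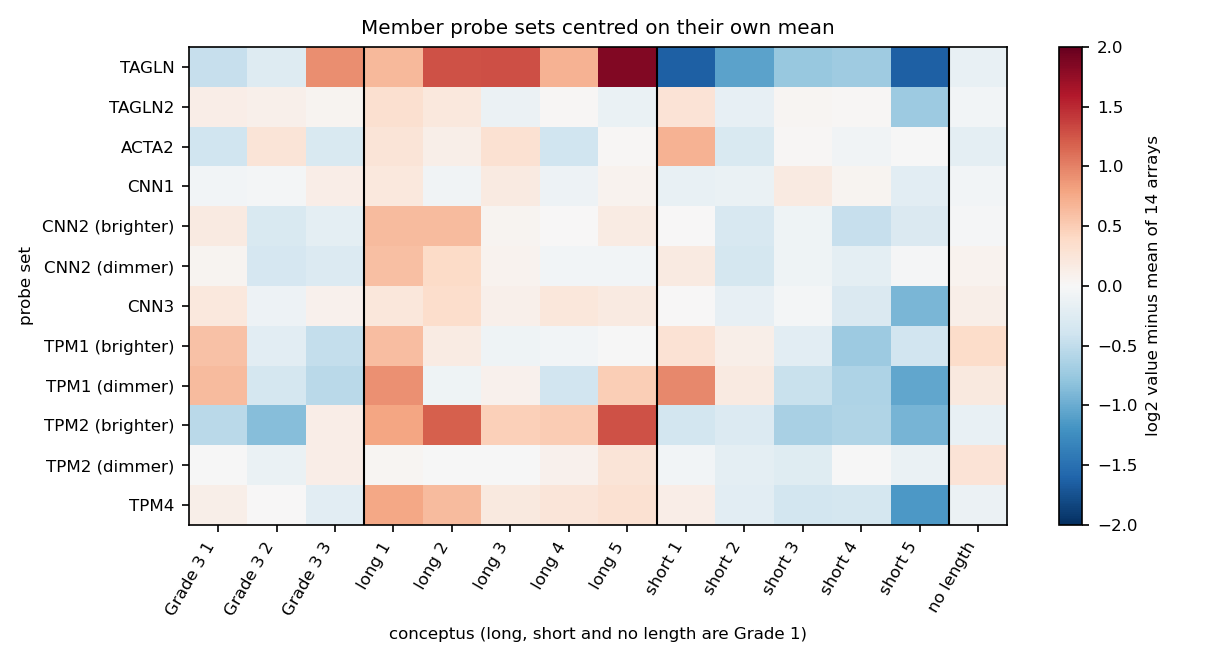
Each of the 12 probe sets (rows) in each of the 14 conceptuses (columns), as the log2 value minus that probe set's mean over the 14 arrays; red is above and blue below the mean. TAGLN and the brighter TPM2 probe set are red across the 5 long conceptuses and blue across the 5 short ones, and Grade 3 replicate 3 is red for both, while TPM1 is mixed in both length groups.

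The largest differences between male and female conceptuses were those of TPM1, and they did not pass. With the 4 groups as terms, the TPM1 difference, male minus female, was 0.54 ± 0.16 (SE) in its brighter and 0.94 ± 0.24 in its dimmer probe set. Neither passed over the whole array (limma adjusted p = 0.196 and 0.130). In the brighter probe set the 6 males had a lowest, median and highest value of 9.57, 10.39 and 10.67, and the 8 females had a lowest, median and highest value of 9.33, 9.90 and 10.22. Of the males, 4 lay above every female, while Grade 3 replicate 3, a male, was at 9.57. The TPM4 difference was 0.38 ± 0.16 (SE; adjusted p = 0.356). TAGLN was at -0.21 ± 0.29 (SE; adjusted p = 0.807) in males against females, the only one of the 12 probe sets with a negative difference. None of the 12 passed, against 0.458% of the array; 3 of 12 had an unadjusted p under 0.05, as did 12.6% of all probe sets.

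The members did not move as a block. Across the 14 arrays TAGLN went most closely with TPM2, at a Pearson correlation of 0.86 (Spearman 0.82), and at 0.61 for the deviations from the 4 group means. TPM1 did not go with TAGLN (0.07), and within groups the relation was negative, at -0.60. TPM1 went with CNN2 (0.70, and 0.75 within groups). CNN3 and TPM4 went together at 0.89. TAGLN2 and TPM4 reached 0.77, but 0.26 over the 12 arrays left without the 2 farthest from the TAGLN2 median, so that relation rested on those arrays, short replicate 5 among them. These values describe arrays that share their normalisation and their groups, so they were not tested. The paired probe sets of a gene gave 0.88 for CNN2, 0.84 for TPM1 and 0.57 for TPM2.

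**Figure D4:**
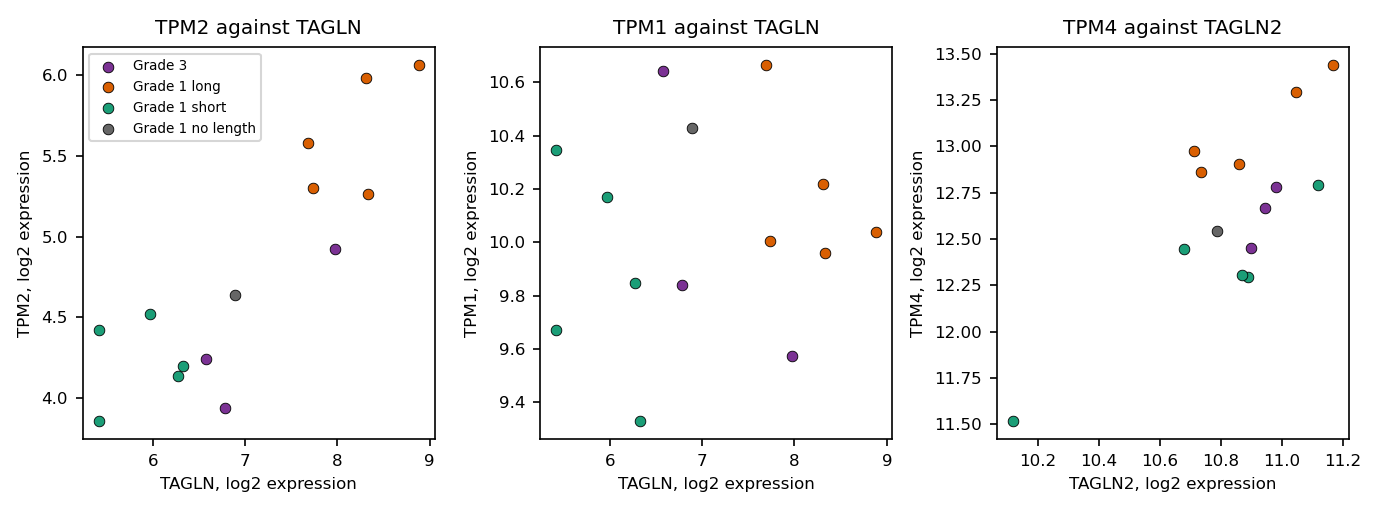
Log2 expression of TPM2 against TAGLN, TPM1 against TAGLN and TPM4 against TAGLN2, 1 point a conceptus, coloured by group. TPM2 and TAGLN order the conceptuses alike from short to long, TPM1 and TAGLN do not, and the TPM4 and TAGLN2 panel holds 1 short conceptus far below the others, at 11.52 and 10.12.

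Among 9146 named genes outside the family, 5 followed TAGLN most closely over the 14 arrays. These were HP1BP3, a heterochromatin-binding protein (0.92), AHCYL1, a regulator of inositol trisphosphate receptors (0.91), PALS1, a scaffold of epithelial polarity (0.91), SESN1, a p53-induced sestrin (0.91) and MINDY2, a deubiquitinase (0.90). HP1BP3 had 9.78 ± 0.19 in Grade 3 (n = 3, SD), and 10.09 ± 0.11 in long and 9.71 ± 0.09 in short conceptuses (n = 5 each, SD). PALS1 had 10.48 ± 0.16 in Grade 3, and 10.59 ± 0.10 in long and 10.11 ± 0.10 in short ones. By correlation with TAGLN over the 14 arrays TPM2 would have ranked 16 and CNN3 434 among the named genes.

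Of 40 measured genes on the actin cytoskeleton list, moesin alone passed between lengths: MSN, which ties actin to the cell membrane, had 11.01 ± 0.12 in long and 10.66 ± 0.13 in short conceptuses (n = 5 each, SD), a difference of 0.35 ± 0.08 (SE; limma adjusted p = 0.0323). It lost the threshold in 6 of 10 fits with 1 conceptus left out (0.31 to 0.40) and with prefixes as blocks (0.40). Over the whole array, 6.57% of probe sets passed between lengths. Nothing is read from how many genes of this or the other lists passed. The actin list's median difference was 0.06, against -0.03 over all named genes, with members on both sides. The severing protein GSN was at 0.78 (adjusted p = 0.0540) and the non-muscle myosin MYH10 at 0.49 (adjusted p = 0.0516). The filament-end cap TMOD1 was at -0.56 (adjusted p = 0.0653) and the filament-severing CFL2 at -0.49 (adjusted p = 0.0556). The cytoplasmic actins ACTB and ACTG1, named to stand beside ACTA2, differed by 0.06 ± 0.05 and -0.01 ± 0.05 (SE). ACTB ran from 13.80 to 13.98 over all arrays and ACTG1 from 14.01 to 14.12, and the top of the scale was 14.61. Of the 18 measured genes of the SRF and MRTF list, which holds SRF, its cofactors and genes known to act with or under them, 0 passed in limma, with a median of -0.18. The SRF gene itself differed by -0.12 (adjusted p = 0.547) and the early response gene EGR1 by -0.58 (adjusted p = 0.113). Of 18 genes of TGF-beta and YAP signalling, 1 passed: SMAD2, which carries TGF-beta signals to the nucleus, had 10.17 ± 0.14 in long and 9.58 ± 0.18 in short conceptuses (n = 5 each, SD), a difference of 0.59 ± 0.10 (SE; adjusted p = 0.0102). SMAD2 kept the threshold in 10 of 10 fits with 1 conceptus left out, and lost it with prefixes as blocks (0.45) and with the conceptus of disagreeing labels counted as long (0.52). CCN2, a common target of both pathways, differed by 0.01 (adjusted p = 0.986). No gene of these 3 lists passed between grades in limma, as was the case for 0% of the array.

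Markers of contractile and stromal cells were examined because the label of smooth muscle rests on them. Of 6 measured smooth-muscle markers outside the family, 0 passed between lengths in limma, where 6.57% of all probe sets did. Their mean level per conceptus ran from 4.92 to 5.00 in Grade 3, 4.90 to 5.07 in long and 4.84 to 5.06 in short conceptuses. The difference of the myosin heavy chain MYH11 was 0.76 ± 0.26 (SE; adjusted p = 0.101) and that of smoothelin, SMTN, was -0.44 ± 0.13 (adjusted p = 0.0728). LMOD1 and DES lay between 4.74 and 5.55 on every array, and PLN and KCNMB1 between 2.99 and 3.57. MYH11, SMTN and LMOD1 are also on the actin cytoskeleton list. Of 11 striated muscle markers 1 passed, CKM, muscle creatine kinase, with 10.52 ± 0.41 in long and 7.05 ± 1.43 in short conceptuses, a difference of 3.48 ± 0.56 (SE; adjusted p = 0.00969). CKM kept the threshold in 10 of 10 fits with 1 conceptus left out. The rest of the list did not follow it. Of the 11, 6 had the higher mean in long conceptuses, with a median difference of 0.02, against -0.03 over all named genes. MYH7 was at 0.32 (limma adjusted p = 0.0661) and TNNI3 at -0.67 (adjusted p = 0.170). Of the cardiac genes, TNNT2 lay between 2.84 and 3.21 over all arrays, MYL2 between 3.81 and 4.42, TNNI3 between 4.32 and 6.28, TNNC1 between 6.28 and 7.66 and ACTC1 between 6.71 and 7.05.

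Of 12 stromal markers, THY1 was higher (0.40 ± 0.11, SE; adjusted p = 0.0480) and the receptor PDGFRA lower (-1.80 ± 0.21; adjusted p = 0.00759) in long conceptuses. THY1 lost the threshold in 9 of 10 fits with 1 conceptus left out (0.33 to 0.47), with prefixes as blocks (0.28) and with the conceptus of disagreeing labels counted as long (0.27). PDGFRA lost it only in the last of these (-1.55). Of the matrix genes on the list, COL1A2, LUM, POSTN and DCN stayed between 2.47 and 3.64 on all 14 arrays, COL3A1 between 3.57 and 4.06, COL1A1 between 5.61 and 5.85, and fibronectin, FN1, between 12.12 and 13.23. The stromal list averaged 5.29 to 5.40 in Grade 3, 5.19 to 5.30 in long and 5.21 to 5.39 in short conceptuses. Of 11 endothelial and blood markers, PECAM1 was higher (0.99 ± 0.14, SE; adjusted p = 0.00902) and CD8A lower (-0.84 ± 0.20; adjusted p = 0.0322), and of 9 hypoblast markers RBP4 (1.30) and APOA1 (0.59) were higher and PDGFRA lower. CD8A lost the threshold in 7 of 10 fits with 1 conceptus left out (-0.97 to -0.73). PECAM1, CD8A, RBP4 and APOA1 all lost it with prefixes as blocks and with the conceptus of disagreeing labels counted as long. Of 9 trophoblast markers TFAP2A was higher (0.38) and ASCL2 lower (-0.49). Both lost the threshold in 8 of 10 fits with 1 conceptus left out and with prefixes as blocks, and TFAP2A also with the conceptus of disagreeing labels counted as long. The trophoblast list averaged 10.07 to 10.17 in Grade 3, 9.98 to 10.10 in long and 9.98 to 10.14 in short conceptuses. PDGFRA is on both the stromal and the hypoblast list. Beside the counts of these lists stands the 6.57% of all probe sets that passed between lengths. The median difference was 0.06 on the stromal, -0.12 on the endothelial and blood, -0.11 on the hypoblast and -0.14 on the trophoblast list. Over all named genes it was -0.03. Genes with the higher mean in long conceptuses were 8 of 12, 4 of 11, 4 of 9 and 4 of 9, in that order. What share these marker differences have in the levels of the family was not tested.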

How the data were processed

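Each of 14 whole conceptuses gave RNA (250 ng, per the labels) for 1 Affymetrix bovine array. The deposited values are on the log2 scale, 1 per probe set; the submitters' processing notes name RMA and Expression Console, without a version, and the sources used here do not record which arrays were processed as a set. RMA compresses differences at low signal and removes any shift common to all genes. Of 24128 probe sets, 112 array controls were left out. Platform annotation gave 1 symbol to 13292 probe sets, several to 86 and none to 10638; 13263 matched RefSeq (assembly ARS-UCD2.0) by Entrez number, with 0 symbols changed. Each gene stands by its probe set of highest mean over the 14 arrays. Precision is limited by the number of arrays.

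Differences were fitted with limma 3.58.1 in R 4.3.3 (lmFit, eBayes, two-sided, Benjamini-Hochberg over 24016 probe sets, threshold 0.05): long against short within Grade 1 (5 and 5), Grade 3 against all 11 Grade 1 (the labels do not name the 4 that the design text used) and male against female with the groups as terms. The fit was tested on simulated data. Intervals are 95%. Named are all members, list genes past the threshold and the 5 genes most correlated with TAGLN; other list genes in the text were chosen after their values were seen. Members and lists were chosen with earlier results of these data known. Promoter and protein sequences were not used here.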

Additional observations from a re-analysis of the deposited data

Results flagged for a closer look

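TAGLN2 is listed here because its differences inside the 2 title prefixes that hold both lengths had opposite signs. Long conceptuses were higher by 0.429 in the prefix with 2 long conceptuses and 1 short one. In the prefix with 1 long conceptus and 2 short ones the difference was -0.146, lower in long. The difference between the prefixes was not tested. By Dixon's criterion no value stood apart in any of 24 groups of 5 long or short conceptuses.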

How the results depend on the processing

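Replicate numbers follow accession order and pair no conceptuses, so no analysis paired by replicate was run. Title prefixes, 2 of which hold both lengths, were fitted as blocks instead. Between lengths, 1577 probe sets passed, 4 of them of the 12 in the family. With the conceptus of disagreeing labels counted as long, these counts were 492 and 2, and the actin cytoskeleton list had 3 genes past the threshold in place of 1. When title prefixes entered as fixed blocks they were 112 and 2, and with sex as a covariate 2403 and 6. With 1 conceptus left out, the array count ran from 460 to 1697, the family count from 2 to 4, and the list counts from 0 to 4 (actin cytoskeleton), 0 to 1 (SRF and MRTF) and 1 to 3 (TGF-beta and YAP). Short replicate 4 gave the lowest array count.

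Between grades 0 probe sets passed, and 0 to 2 with 1 conceptus left out, none of them in the family. Differences that changed sign there were near 0 in the main fit, such as 0.09 for TAGLN and -0.04 for TPM1. With 1 conceptus left out, TAGLN ran from -0.34 (without Grade 3 replicate 3) to 0.36 (without Grade 3 replicate 1). TPM1 ran from -0.36 (without Grade 3 replicate 1) to 0.18 (without Grade 3 replicate 3). TPM4 ran from -0.152 to 0.0546, CNN1 from -0.0427 to 0.0497 and CNN3 from -0.00298 to 0.17. Between sexes, with grade alone as a covariate, ACTA2 was at -0.0369, CNN1 at -0.0237 and TPM2 at -0.0102, against positive values with the 4 groups as terms. The causes of these changes were not tested.

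The length label of 1 conceptus, the small groups, and recipients, dams and prefixes that the labels leave unresolved limit every comparison.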
